A study of Mus musculus with 8 samples.

Results

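Proline tRNA fragments are the tRFs (tRNA-derived fragments) that the deposited table names for a tRNA carrying proline. The members were selected on the tRNA name alone, and 130 of the 2226 sequences in the table were members, 125 named Pro-AGG and 5 named Pro-TGG after the anticodon. No measured value entered that rule, although proline was taken up with earlier results of these data known. Small RNA had been sequenced from FACS-sorted β-cells of 8-week-old male mice, with 4 libraries of db/db mice and 4 of wild-type mice. The db/db mice, BKS.Cg-Dock7m+/+LeprdbJ, carry a leptin receptor defect and become obese and diabetic, and the wild-type controls were BKS.Cg-Dock7m+/+, so that both groups share the BKS background. Islets of several animals were pooled for each preparation, dispersed and sorted by autofluorescence. The table holds no mRNA, and so the β-cell label could not be checked against marker genes.

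A tRNA brings its amino acid to the ribosome, where its anticodon pairs with the codon. Its genes do not encode the last bases, CCA, which a dedicated enzyme adds to the trimmed transcript, and the amino acid is then attached to the terminal A. Enzymes that cut the mature tRNA in its loops leave shorter RNAs from the 5′ side, the 3′ side or the middle, and several such tRFs take part in gene regulation and in responses to stress.

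RefSeq lists 16 proline tRNA genes in the build GRCm38.p6, which the submitters' processing notes also name: 6 with the anticodon AGG, 7 with TGG and 3 with CGG, each 72 bases long. Examples are n-TPagg2 at chr1:165641634-165641705, n-TPagg7 at chr7:98815676-98815747 and n-TPtgg7 at chr3:51358354-51358425. Of the 16 genes, 15 lie outside every GENCODE gene, and the other, n-TPtgg2 at chr11:67291139-67291210, overlaps an exon of Myh8. With CCA the mature tRNA has 75 bases, and CCA takes bases 73 to 75. The fragments were placed on it by their overlaps with each other, and they were not assigned to single genes because several genes can share a fragment. Fragments are named here by their first and last base.

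All 125 Pro-AGG fragments fell into a chain over bases 1 to 32 or a chain over bases 36 to 75, and 0 of them covered the anticodon at bases 33 to 35. No fragment was named for the CGG anticodon. The table gives each sequence a single name. Of the members, 23 lie wholly within bases 1 to 29, where the AGG and TGG fragments in the table did not differ. Their anticodon cannot be told from the sequence. The TGG fragments end by base 38 or start at base 59 or later, and the bases between could not be compared. Names of the other members were taken as given and not checked against mature tRNAs of any anticodon, CGG included.

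The following fragments share the first base 49 and differ in how far they run into the 3′ end, which is where the genotypes differed. Capitals mark the bases of CCA that are present.
Pro-AGG 49-75: cgggttcaaatcccggacgagcccCCA
Pro-AGG 49-73: cgggttcaaatcccggacgagcccC
Pro-AGG 49-72: cgggttcaaatcccggacgagccc
Pro-AGG 49-69: cgggttcaaatcccggacgag

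Fragment 49-72 ends with the last base that the gene encodes. Bases 70 to 74 are all C, so that fragments ending there differ only in how many C they keep. The shortest complete fragment that has a short form in the table is shown next to that form, which lacks the terminal A.
Pro-AGG 59-75: tcccggacgagcccCCA
Pro-AGG 59-74: tcccggacgagcccCC

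From the 5′ side, the most abundant form and the longest form are shown, the latter beside its Pro-TGG counterpart. Capitals mark base 30, at which the names differ (C30G, Pro-AGG base first, counted from the 5′ end of the tRNA).
Pro-AGG 1-18: ggctcgttggtctagggg
Pro-AGG 1-30: ggctcgttggtctaggggtatgattctcgC
Pro-TGG 1-30: ggctcgttggtctaggggtatgattctcgG

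Another 2 fragments show the middle of the tRNA: Pro-TGG 12-38 runs through the anticodon, in capitals, and Pro-AGG 38-55 starts just after it. Between the names, Pro-TGG 12-38 also has G38C, and Pro-TGG 59-75 has G63A.
Pro-TGG 12-38: ctaggggtatgattctcggttTGGgtc
Pro-AGG 38-55: gcgagaggtcccgggttc

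The fragments were 16 to 30 nt long. Pro-AGG was rank 4 of 48 names in the number of sequences and rank 2 in its share of tRF counts averaged over the 8 libraries (6.57%). In counts pooled over the libraries, to which db/db 3 gave more than any other library, it was rank 3 (6.17%). Of its 125 fragments, 15 ended in CCA and 110 did not, rank 3 among all names for the latter. Pro-TGG contributed 0.0614% to 0.437% of the proline counts of a library. The tRF counts of a library ranged from 582165 to 1265123, except for db/db 3 with 2946290, and the proline counts from 32561 to 70372, except for db/db 3 with 168824. Proline fragments made up 7.92%, 8.73%, 8.34% and 5.56% of tRF counts in wild type 1 to 4, and 4.13%, 7.37%, 5.73% and 4.86% in db/db 1 to 4. The groups overlapped (7.64% ± 1.42 against 5.52% ± 1.40, SD, n = 4 each). Levels are given below as CPM, counts scaled to a common tRF total by the TMM method of edgeR.

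Fragments of proline tRNAs that stopped 1 to 3 bases before the end of CCA were about 8.67-fold lower in db/db β-cells, while those with complete CCA ends were not called. A sequence was called if its fold change exceeded 2 at an adjusted p below 0.1 in edgeR's quasi-likelihood test over the whole table, where 275 of 1832 tested sequences (15%) were called, 173 lower (9.44%) and 102 higher (5.57%) and the median log2 fold change was 0.00. Of 130 proline fragments 111 passed the filter on low counts, and of these 36 were called lower and 2 higher, and their median log2 fold change was -0.45. They supplied 20.8% of all lower calls in the table. In 34 of the 111 tested proline fragments every db/db library lay below every wild-type library, and in 1 of them every db/db library lay above, beside 10.2% and 6.99% of all tested sequences.

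**Figure D1:**
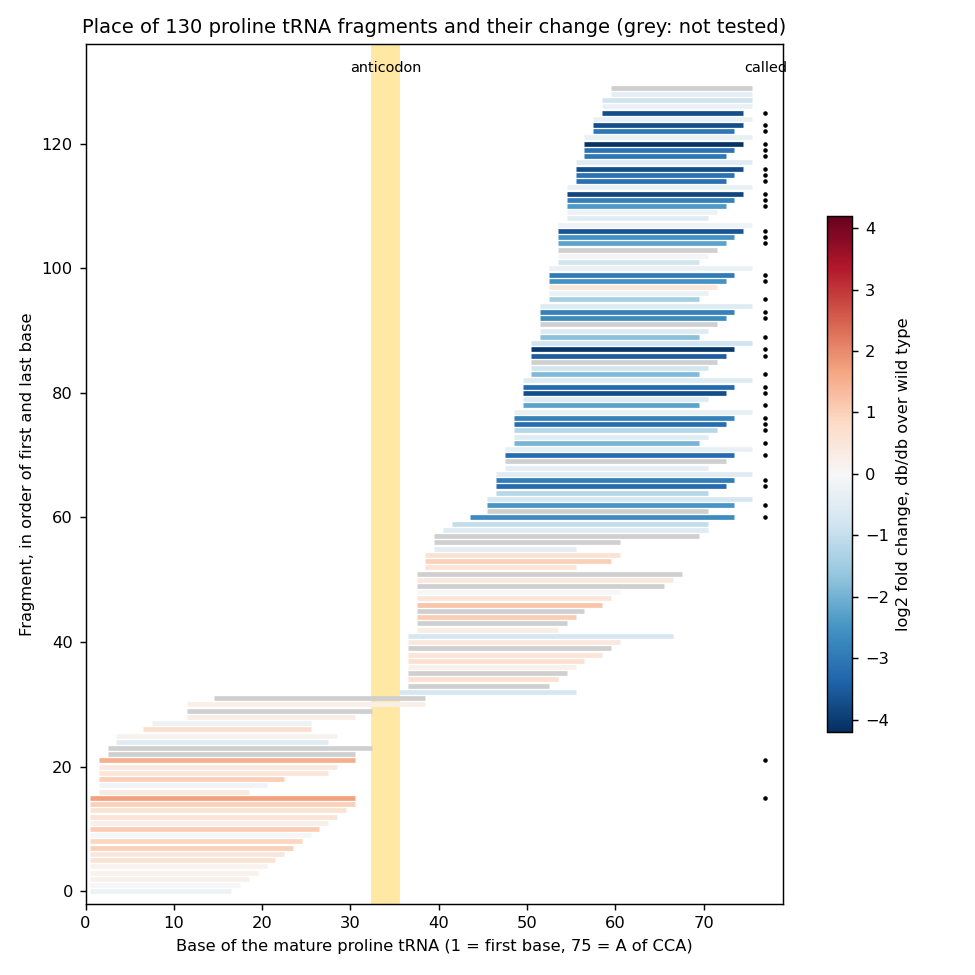
Each horizontal line is 1 of the 130 proline fragments, drawn from its first to its last base on the mature tRNA (x axis, in bases) and coloured by its log2 fold change (db/db over wild type, grey where not tested), with a dot at the right for a called fragment. Dark blue lines end at bases 72 to 74, and the lines that end at base 75 are pale.

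The calls followed the last base. All 30 tested Pro-AGG fragments that ended at bases 72 to 74 were called lower, with log2 fold changes from -4.13 to -2.26 and a median of -3.12. Another 6 lower calls ended at bases 69 or 71, and 0 ended anywhere else. Of the 15 fragments with a complete CCA end, 0 were called, and their log2 fold changes lay between -0.83 and -0.19.

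Fragments ending at base 74 lack only the terminal A, to which the amino acid is attached. Their summed level was 3836, 3631, 4561 and 1467 CPM in wild type 1 to 4 and 80.5, 366, 379 and 181 CPM in db/db 1 to 4. The lowest wild-type library stood above the highest db/db library. The log2 fold change of this sum was -3.74 (SE 0.48), and all 6 fragments were called lower. The sums carry no p-value, because the grouping by last base was made with results known.

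Ends at base 73 keep a single base of CCA and were the most abundant of the short forms. They summed to 10255, 10583, 5767 and 3342 CPM in wild type and to 432, 867, 2003 and 615 CPM in db/db, where db/db 3 was the highest. These groups did not overlap either. Their log2 fold change was -2.93 (SE 0.46), and 14 of 14 were called lower.

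Ends at base 72 have no CCA at all. They summed to 2208, 2540, 1466 and 888 CPM in wild type and to 160, 248, 271 and 220 CPM in db/db, again without overlap. The log2 fold change was -2.98 (SE 0.39), and 10 of 10 tested fragments were called lower.

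Complete ends, by contrast, were present at 79417, 58053, 70361 and 43604 CPM in wild type and at 23311, 70469, 65512 and 32946 CPM in db/db. The groups overlapped over most of their range, and db/db 2 exceeded wild type 2, 3 and 4. The log2 fold change of the sum was -0.39 (SE 0.32). Complete and short forms were measured in the same libraries with the same scaling.

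**Figure D2:**
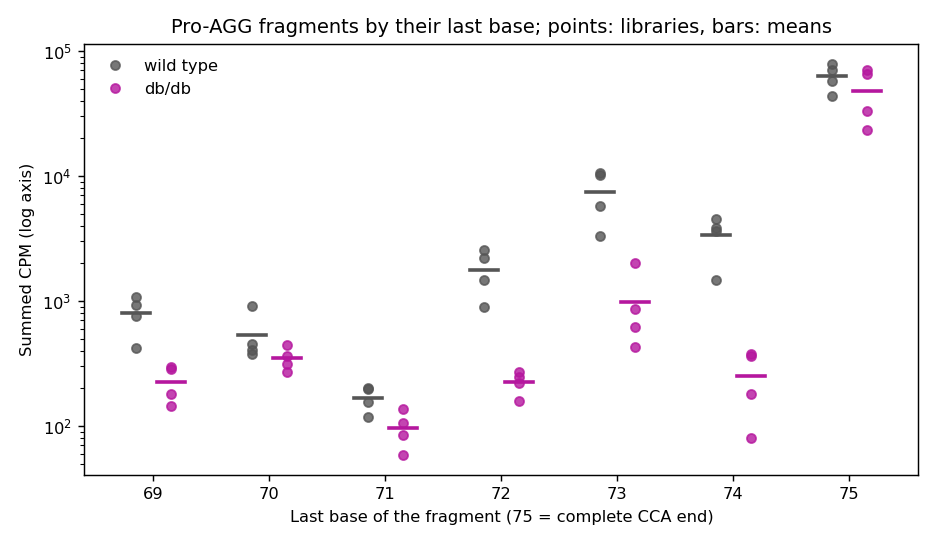
Summed CPM (log axis) of Pro-AGG fragments by last base (x axis), with a point for each of the 4 wild-type (grey) and 4 db/db (purple) libraries and a bar for the group mean. The groups are apart at bases 69, 72, 73 and 74 and overlap at bases 70, 71 and 75.

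The difference between the genotypes was not even along the tail. Fragments ending at base 69, just before the run of C, summed to 1081, 930, 764 and 421 CPM in wild type and to 146, 180, 296 and 284 CPM in db/db, with no overlap, a log2 fold change of -1.82 (SE 0.40) and 5 of 6 tested fragments called lower. A single base further on, at base 70, the levels were 452, 921, 405 and 376 CPM against 361, 272, 312 and 448 CPM. Those groups overlapped, the log2 fold change was -0.63 (SE 0.39), and 0 of 11 tested fragments were called. At base 71 the log2 fold change of the sum was -0.79 (SE 0.44), and 1 of 3 tested fragments was called. Without wild type 1 only 3 fragments ending at base 69 were called lower, and with the effective library sizes that the deposited log2 values imply, 1 was.

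Single fragments showed the same order. Pro-AGG 49-75, the most abundant proline fragment, had 13288, 11442, 10739 and 10770 CPM in wild type and 6882, 9896, 11260 and 7641 CPM in db/db. The groups overlapped, and it was not called (log2 fold change -0.37, SE 0.32, adjusted p 0.556). Its shorter form Pro-AGG 49-73, the most abundant fragment without a complete end, had 4737, 4780, 2673 and 1605 CPM in wild type and 249, 408, 936 and 311 CPM in db/db. Every wild-type library was above every db/db library (log2 fold change -2.85, SE 0.46, adjusted p 8.27e-05). Pro-AGG 49-72 fell more, from 898 ± 362 to 97.2 ± 27.7 CPM (SD, n = 4 each, edgeR adjusted p 5.16e-06, log2 fold change -3.20). Pro-AGG 49-69 fell from 469 ± 190 to 121 ± 42.2 CPM (edgeR adjusted p 0.000788, log2 fold change -1.95). Between those ends, Pro-AGG 49-70 was not called at -0.52 (adjusted p 0.451), and Pro-AGG 49-71 was called at -1.20 (adjusted p 0.0479).

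The 17-nt fragment Pro-AGG 59-75 begins in the T loop. It had 11254, 7728, 11029 and 4300 CPM in wild type and 3054, 11100, 11098 and 3337 CPM in db/db, and was not called (log2 fold change -0.26, SE 0.43, adjusted p 0.774). Both genotypes spanned a similar range. Its 16-nt form without the terminal A, Pro-AGG 59-74, had 1516, 1485, 1918 and 578 CPM in wild type and 37.8, 145, 166 and 69.6 CPM in db/db. The log2 fold change was -3.71 (SE 0.48, adjusted p 8.3e-06), with no overlap. Pro-AGG 57-74 changed most (log2 fold change -4.13, SE 0.47, edgeR adjusted p 2.57e-06), from 170 ± 55.8 to 9.48 ± 4.81 CPM, where the db/db libraries held 4 to 34 counts. Pro-AGG 51-73 followed at -4.05 (SE 0.55), and 55-74, 56-74, 50-72, 58-74 and 54-74 lay between -3.86 and -3.64. Of these, Pro-AGG 50-72 went from -3.74 to -3.09 without wild type 2 and to -4.36 and -4.73 with the library sizes implied by the deposited RPM and log2 values.

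A comparison within each start and each library needs no scaling between libraries. Among counts ending at bases 72 to 75, those short of base 75 were 17.02%, 22.4%, 14.4% and 11.6% in wild type and 2.80%, 2.06%, 3.89% and 2.99% in db/db. The means of 16.3% ± 4.61 and 2.94% ± 0.753 (SD, n = 4 each) differed 5.56-fold, and the groups did not overlap. At 14 starts, bases 46 to 59, both a complete and a short form were in the table, and at all 14 every db/db library was below every wild-type library. The wild-type mean ranged from 7.81% at base 46 to 27.8% at base 56, and the db/db mean from 1.41% at base 48 to 5.73% at base 49. The ratio of the means was smallest at base 46, at 3.75, and largest at base 59, at 9.06.

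**Figure D3:**
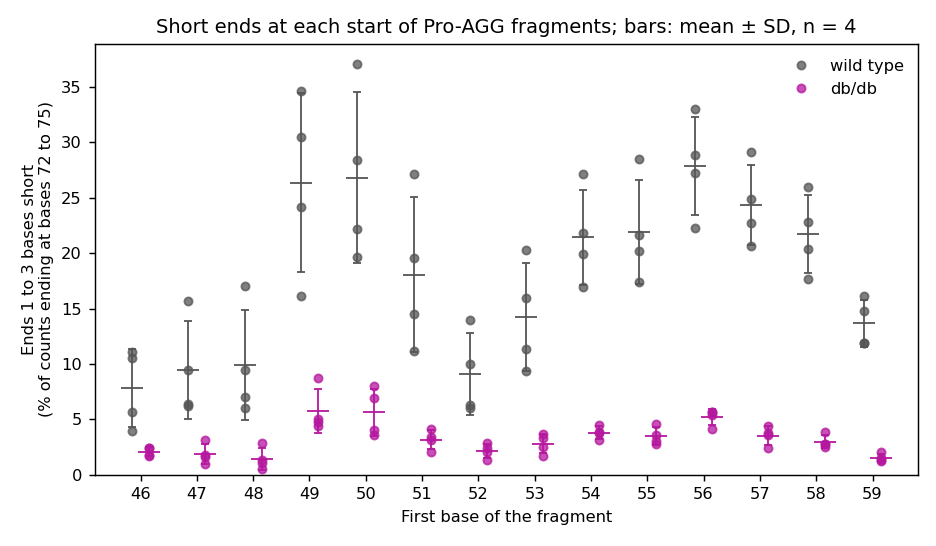
For each first base of Pro-AGG fragments (x axis), the share of counts ending 1 to 3 bases before the end of CCA, in % of counts ending at bases 72 to 75, is shown for each library with mean and SD (n = 4 per genotype). Wild-type libraries (grey) lie above db/db libraries (purple) at all 14 starts.

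The starts did not share all forms. Ends at base 74 were in the table only for the 6 starts from base 54 to base 59, whereas ends at base 73 were found for 13 of the 14 starts and ends at base 72 for 11. Ends at base 74 made up 4.35% ± 1.11 of counts ending at bases 72 to 75 in wild type and 0.483% ± 0.1002 in db/db, an 8.99-fold difference. For base 73 the shares were 9.66% ± 3.49 and 1.94% ± 0.724 (4.99-fold), and for base 72 they were 2.32% ± 0.755 and 0.515% ± 0.167 (4.51-fold). In each of these the groups did not overlap. The starts share libraries and are not replicates of each other.

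Forms of this kind were not particular to proline. Across all names, 188 sequences shared their start with a complete fragment of the same name and ended 1 to 3 bases before it, and 142 of the 155 tested were called lower. Pro-AGG had 30 of them (15.96%), more than any of the other 25 names, and 42.1% of their counts pooled over the libraries. All 29 tested Pro-AGG forms were called lower, and so were 22 of 22 for Phe-GAA, whereas for Gly-ACC 12 of 18 and for Asp-GTC 2 of 7 were. How far the depth or composition of single libraries took part in these differences was not tested. Leaving out db/db 3, the deepest library, gave 31 lower calls in place of 30 among the Pro-AGG forms of these ends and a log2 fold change of the sum of -3.52.

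Outside the 3′ end 2 proline fragments were called, both higher in db/db. The 5′ fragments of Pro-AGG start at base 1 and end between bases 16 and 30, in the D arm or before the anticodon. Their summed level was 2422, 2465, 4179 and 3760 CPM in wild type and 5872, 4326, 1158 and 5804 CPM in db/db. In db/db, libraries 1, 2 and 4 were above all wild-type libraries and library 3 was below all. The log2 fold change of the sum was 0.42 (SE 0.38) and 0 of 15 fragments were called. Without db/db 3, 4 of them were called higher (Pro-AGG 1-23, 1-24, 1-26 and 1-30), and without wild type 3, 3 were (1-23, 1-24 and 1-30). Higher calls over the whole table also rose in these settings, from 5.57% of tested sequences to 7.01% without db/db 3 and 8.89% without wild type 3. The sign depended on the scaling, since the value was -0.03 with the library totals implied by the deposited RPM, which also hold RNAs other than tRFs, and -0.41 with the effective library sizes, beside 0.78 without db/db 3. The tRFs made up 49.1%, 55.7%, 22.6% and 38.3% of the implied library totals in wild type and 20.6%, 30.7%, 55.4% and 20.01% in db/db, and the 3 libraries with the highest of these shares, wild type 1 and 2 and db/db 3, had the lowest 5′ levels. The part of this in the result was not tested.

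Log2 fold changes of single 5′ fragments ran from -0.21 for Pro-AGG 1-16 to 1.07 for Pro-AGG 1-26. Pro-AGG 1-18, the most abundant, had 368, 392, 594 and 494 CPM in wild type and 783, 533, 151 and 691 CPM in db/db (log2 fold change 0.22, SE 0.40, adjusted p 0.803). Pro-AGG 1-22 had 394 ± 134 CPM in wild type and 550 ± 270 in db/db, a log2 fold change of 0.48 (SE 0.41). Pro-AGG 1-30 had 209, 249, 300 and 320 CPM in wild type and 665, 511, 184 and 824 CPM in db/db, a log2 fold change of 1.01 (SE 0.39) that missed the threshold by little (adjusted p 0.105). It was called higher without a normalisation factor, by edgeR's likelihood-ratio test, and with either other filter setting. In these 3 fragments db/db 3 was the lowest of the 8 libraries.

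Within the 5′ fragments the lengths differed in a way that does not depend on scaling. Their count-weighted mean length, with both names together, was 21.6, 22.2, 22.4 and 22.8 nt in wild type and 22.8, 22.97, 23.4 and 23.8 nt in db/db. The lowest db/db library was just above the highest wild-type library, and the means were 22.2 ± 0.506 and 23.2 ± 0.444 nt (SD, n = 4 each). Fragments of 21 nt or more were 54.1% ± 5.14 of Pro-AGG 5′ counts in wild type and 63.9% ± 4.66 in db/db. Ends at base 30 were 8.63%, 10.1%, 7.19% and 8.52% in wild type and 11.3%, 11.8%, 15.9% and 14.2% in db/db. Neither of these 2 measures overlapped between the groups, and db/db 3 lay on the db/db side in both. The shares of ends at bases 18, 22 and 28 did overlap. Their means were 14.6%, 12.4% and 10.2% in wild type and 12.7%, 13.1% and 11.6% in db/db.

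Both fragments called higher end at base 30. Pro-TGG 1-30 had 8.94, 9.52, 37.1 and 35.7 CPM in wild type, from 5, 7, 22 and 46 counts, and 83.4, 85.2, 25.9 and 117 CPM in db/db, from 86, 47, 62 and 131 counts. Libraries 1, 2 and 4 of db/db exceeded every wild-type library, and library 3 lay within the wild-type range. It was called higher (log2 fold change 1.73, SE 0.54, adjusted p 0.0314). The call was lost without db/db 4 (1.52) and with both alternative library sizes (1.42 and 1.19). Pro-TGG made up 4.10%, 3.68%, 11.0% and 10.02% of the counts of both 1-30 fragments in wild type and 11.2%, 14.3%, 12.3% and 12.4% in db/db, where the lowest db/db library barely exceeded the highest wild-type library.

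Pro-AGG 2-30 is the same stretch without the first base. It had 17.9, 12.2, 10.1 and 10.1 CPM in wild type, from 6 to 13 counts, and 38.8, 29.01, 19.6 and 57.1 CPM in db/db, from 16 to 64 counts. Every db/db library was above every wild-type library, the only such proline fragment among those tested (log2 fold change 1.53, SE 0.52, adjusted p 0.0555). Its call was lost without wild type 2 (1.48), wild type 4 (1.43), db/db 1 (1.49) or db/db 4 (1.30), and with both alternative library sizes (1.07 and 0.76). The 10 Pro-AGG fragments that start at bases 2 to 4 summed to a log2 fold change of 0.46 (SE 0.34), which was 0.036 and -0.22 with the library sizes implied by the deposited RPM and log2 values.

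**Figure D4:**
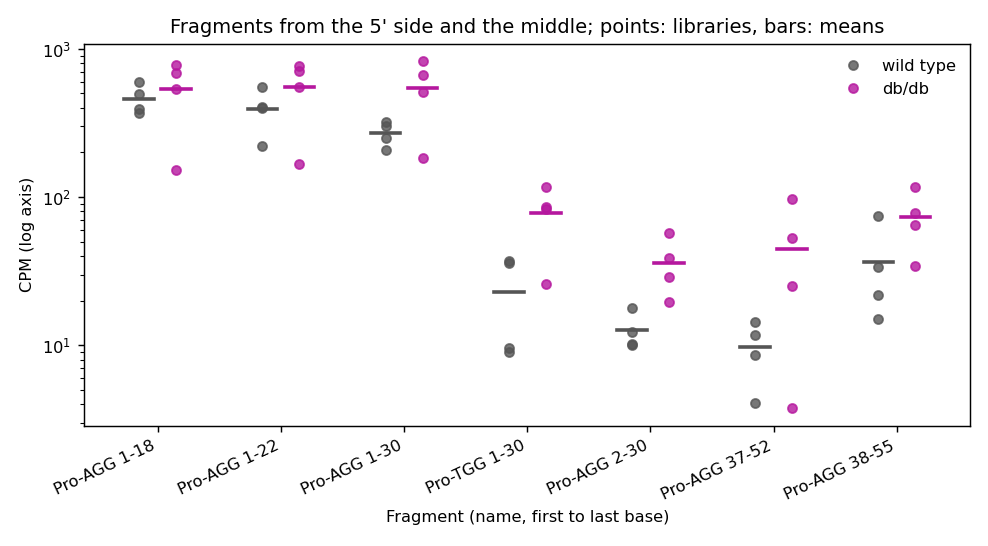
CPM (log axis) of 5 fragments from the 5′ side and 2 from the middle of the tRNA, with a point for each library (grey wild type, purple db/db) and a bar for the group mean. A single db/db library, db/db 3, lies at the bottom of the db/db points in all 4 fragments that start at base 1, in Pro-AGG 2-30 and in Pro-AGG 37-52.

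Fragments from the middle of the tRNA start just after the anticodon, at bases 36 to 40, and end in the T arm or, in 4 of them, beyond it in the acceptor stem, at bases 52 to 67. There were 25 of them, 17 were tested, 0 were called, and 13 had a log2 fold change above 0 (median 0.53). Without wild type 3, 5 of the 25 were called higher (Pro-AGG 37-52, 38-55, 38-58, 39-59 and 39-60), in the setting that gave 8.89% higher calls over the whole table, and Pro-AGG 37-52 was also called higher without wild type 1, without db/db 3, without a filter and with a filter of 10 counts in 4 libraries. Without db/db 2, Pro-AGG 38-55 was called higher. Their sum was 325, 219, 753 and 334 CPM in wild type and 699, 582, 289 and 708 CPM in db/db, with overlap (log2 fold change 0.48, SE 0.38). Pro-AGG 38-55 had 33.96, 14.96, 74.2 and 21.7 CPM in wild type and 78.6, 34.5, 65.2 and 116 CPM in db/db (log2 fold change 1.05, SE 0.50, adjusted p 0.223). Pro-AGG 37-52 was below the filter, with 3 to 11 counts in wild type, 9 in db/db 3 and 28 to 100 in the other db/db libraries. A further 4 Pro-AGG fragments start at bases 7 to 12 and end before the anticodon, with a summed log2 fold change of 0.38 (SE 0.38), which was -0.24 with the effective library sizes. The anticodon itself was covered by 2 Pro-TGG fragments. The tested one, Pro-TGG 12-38, had 5 to 16 counts per library in wild type and 11 to 40 in db/db, and was not called (log2 fold change 0.24, SE 0.55, adjusted p 0.837). The other, Pro-TGG 15-38, had 0 counts in wild type 1 and 2, which allows up to 3 counts each.

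Pro-TGG 59-75 differs from Pro-AGG 59-75 by G63A in the T arm. It was not called (log2 fold change -0.83, SE 0.65, adjusted p 0.508), and with 2 to 32 counts per library its level was measured with little precision.

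The make-up of the 113 proline fragments without a complete CCA end differed between the genotypes. In wild type, ends at bases 72 to 74 made up 77.6%, 77.3%, 64.3% and 51.9% of these counts, and in db/db 8.12%, 20.2%, 53.3% and 11.4%. Because db/db 3 was above wild type 4, the groups overlapped. The 5′ fragments of both names took 11.6%, 11.4%, 22.99% and 34.6% in wild type and 71.9%, 60.2%, 23.8% and 66.6% in db/db, with db/db 3 again within the wild-type range. Fragments from after the anticodon that end at bases 52 to 67 took 2.42% ± 1.41 and 7.54% ± 1.18, and those from bases 2 to 4 took 0.826% ± 0.391 and 2.48% ± 0.348, both without overlap. Shares of a whole are bound to each other, so that a lower share of the short 3′ forms goes with higher shares of the rest. In the counts that were neither at the first base nor at a complete end, fragments within bases 2 to 67 were 2.94%, 2.07%, 7.13% and 8.01% in wild type and 44.7%, 30.9%, 12.5% and 36.6% in db/db.

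**Figure D5:**
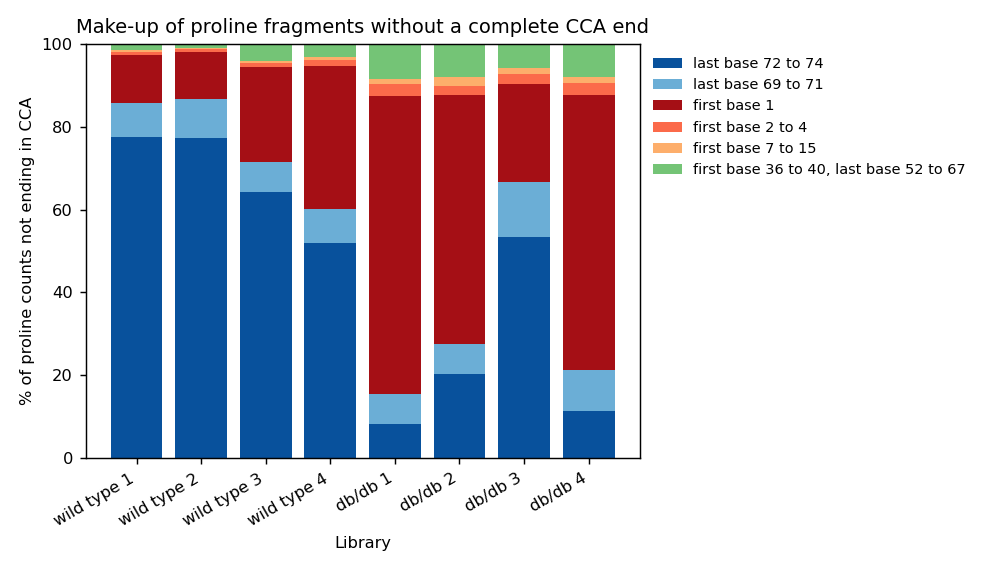
Stacked bars give, for each library (x axis), the parts of the proline counts without a complete CCA end, in %, by first or last base. Ends at bases 72 to 74 (dark blue) take 51.9% to 77.6% in wild type and 8.12% to 53.3% in db/db, and db/db 3 resembles wild type 4 more than the other db/db libraries.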

How the data were processed

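Total RNA of FACS-sorted β-cells was isolated with miRNeasy micro kits, and libraries carried unique molecular identifiers (QIAseq miRNA kit). The authors collapsed reads to molecules and matched them to mature tRNAs without mismatch, so a fragment with a base read differently is not in the table. The submitters' processing notes name GRCm38.p6. The authors' deposited table gives, per sequence and library, a count of molecules, an RPM rounded to a whole number (treated as a score) and a log2 normalised value (its method: not given in the sources used here). It also gives the authors' direction of change in words, which was not used. Counts were the basis of all values. The deposited RPM gave implied library totals and the deposited log2 values effective library sizes, both used as alternative scalings.

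Each Pro fragment was placed by exact overlaps of at least 12 bases with other fragments of the table, fixed at base 75 by CCA and the RefSeq gene length of 72 bases. Mature tRNA sequences were not used here. Counts were fitted with edgeR 4.0.16 in R 4.3.3 (TMM scaling; filterByExpr, minimum count 10, minimum total 15; quasi-likelihood test of genotype over 8 libraries). Adjusted p-values are Benjamini-Hochberg values across the 1832 sequences that passed the filter. A call needed an adjusted p below 0.1 and a fold change above 2. SE is the log2 fold change over the square root of F. Sums were fitted together with sums over all other tRNA names and classes, without p-values. The fit was tested on simulated counts. DESeq2 1.42.0 and the alternatives named at the end were also run.

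The fragments named were the most abundant per name and class, the 3 most abundant of all, the 8 largest changes in each direction without overlap, and the most abundant with each of the commonest 3′ ends and each end short of CCA. Pro-AGG 1-16, 1-22, 1-23, 1-24, 1-26, 1-30, 37-52, 38-55, 38-58, 39-59, 39-60, 49-69, 49-70 and 49-71, Pro-TGG 15-38 and the groups by first and last base were chosen after their values were seen. The members and lists were all chosen with earlier results of these data known and are no independent support. Replicates are separate preparations of pooled islets, numbered in label order. P-values measure the spread between these preparations. Counts near 0 are limited by counting error, for which 3 counts is the limit of a 0.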

Additional observations from a re-analysis of the deposited data

Results flagged for a closer look

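In groups of 4 libraries, 70 in all, a library was picked out when its gap to the nearest other was a large part of the group's range, which chance alone does in about 1 of 20 groups. That held for 3 values. Pro-AGG 50-72 had 103 CPM in wild type 2 and 28.7 to 33.96 CPM in the other wild-type libraries. Fragments with a complete CCA end made up 72.8% of proline counts in wild type 2 and 79.1% to 79.9% in the other wild-type libraries. The proline counts of db/db 3 were 168824, and those of the other db/db libraries 32561 to 46909.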

How the results depend on the processing

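The alternatives left 27 to 31 lower calls among Pro-AGG fragments ending at bases 72 to 74, and 28 to 39 lower calls among all proline fragments. All 28 lower calls made with the authors' effective library sizes were among the 36. The whole table then gave 163 calls in place of 275. Higher calls among proline fragments were less steady: 0 with the implied totals, 0 with the authors' sizes, 4 without a filter, 4 with a filter of 10 counts in 4 libraries, 1 at an adjusted p below 0.05, and 0 to 10 when each library was left out, with 10 without wild type 3, 7 without db/db 3 and 0 without db/db 4. Calls over the whole table moved too, from 256 to 380 over libraries left out, with 380 without wild type 3 and 340 without db/db 3. Ends at base 69 gave 1 lower call with the authors' sizes and 3 to 6 when a library was left out. The authors' sizes moved the median log2 fold change of all sequences to -0.51, the implied totals to -0.36 and no factor to 0.14. Log2 fold changes changed sign for Pro-AGG 1-18 (-0.24 with implied totals, -0.62 with the authors' sizes, -0.021 to 0.58 over libraries left out, lowest without db/db 1), for Pro-TGG 12-38 (-0.084 with the authors' sizes, -0.055 to 0.59 over libraries left out, lowest without wild type 2) and for Pro-AGG 59-75 (-0.49 to 0.11 over libraries left out, highest without db/db 4). Sums over ends at bases 69 to 71 went from -1.16 to -1.63 with implied totals and -1.83 with the authors' sizes, those from bases 2 to 4 to 0.036 and -0.22, and those from bases 7 to 12 to -0.24 with the authors' sizes. In 1 setting, ends within the last 3 bases counted as 3′ ends and starts within the first 3 bases as 5′ starts. It turned the difference in 3′ share (db/db minus wild type) from 6.23 to -4.72 percentage points. The difference in internal share went from -12.0 to -1.27 points, and that in internal mean length from -0.13 to -0.85 nt. That setting moves the ends at bases 73 and 74 from the internal to the 3′ class, while ends at base 72 stay internal. Starts at bases 2 and 3 move from the internal to the 5′ class. For other changes the cause was not tested. Of 288 values of the 18 named fragments under alternatives, 273 kept direction and call. No paired analysis was possible because replicate numbers here only follow the order of the labels, which link no wild-type library to a db/db library. Counts below about 10 per library, as in Pro-TGG, limit what can be told.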

Other observations

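The lengths of fragments with a complete CCA end varied between libraries of the same genotype. Those of 27 to 30 nt made up 27.99%, 35.6%, 29.1% and 53.2% of the complete ends in wild type 1 to 4 and 48.6%, 29.1%, 27.7% and 43.7% in db/db 1 to 4. The means were 36.5% ± 11.6 and 37.3% ± 10.5 (SD, n = 4 each). The 17-nt fragments, which begin in the T loop, made up 13.3% ± 2.47 and 14.0% ± 3.03. Wild type 4 and db/db 1 and 4 had the 3 highest shares of the longer fragments, so that the spread in length lay within both genotypes.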
